A study of Mus musculus with 2 samples.

Results

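Chromatin accessibility was examined at 9 mouse genes whose products build the brush border of absorptive intestinal cells: Vil1, Ezr, Espn, Myo1a, Myo7b, Cdhr2, Cdhr5, Ush1c and Eps8. They were chosen by name for their known roles in microvilli, by a rule that uses no measured value but with earlier results of these data known, from 22380 protein-coding genes of the annotation used. For each gene, ATAC-seq peaks within 1 kb of any of its annotated transcription start sites were called promoter peaks, and other peaks in the gene body or within 20 kb on either side were called distal. ATAC-seq uses a transposase to insert sequencing adapters into open DNA, so that a peak marks a stretch of accessible chromatin. The 9 genes held 87 of the 90445 control peaks and 76 of the 71282 peaks after Taf4 inactivation.

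The brush border is the carpet of microvilli on the apical face of enterocytes. Each microvillus has a core of parallel actin filaments that is held together by bundling proteins and tied to the membrane by linkers and class I myosins. Protocadherins at the tips of neighbouring microvilli bind each other, and an adaptor scaffold with a class VII myosin anchors them to the actin core. Villin is an established marker of the intestinal epithelium, and its regulatory sequences are widely used to drive transgenes there. TAF4 is a subunit of TFIID, the general transcription factor that recognises core promoters.

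The cells were enteroids, which are epithelial cultures, grown from ileal crypts of 4-month-old C57Bl6/129sv mice. Control enteroids were Taf4 lox/lox without Cre and are labelled as having wild-type TAF4. Taf4-inactivated enteroids were Taf4 lox/lox::VilCreERT2 and are labelled as knockout. In them 4-hydroxytamoxifen activates the Cre recombinase, which deletes the floxed part of Taf4. Both cultures received 1 µM 4-hydroxytamoxifen for 3 days, so the comparison concerns an early stage after Taf4 loss, and only the inactivated culture carried the transgene. VilCreERT2 is driven by regulatory sequence of Vil1, itself one of the genes described, and reads from transgene and native gene map to the same place. There was 1 library per genotype, so every difference describes this pair of libraries and none was tested. Shares are given with exact 95% confidence intervals (CI, Clopper-Pearson), which cover counting error only.

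The number of reads was not known, but pileup and local background could be estimated from the fold enrichment and p of each peak. They were solved as if both were even across the peak. The floor of the background, its percentile 5 over the narrowest 10% of peaks, was 12.1 reads in control and 7.35 in the inactivated library, which put the depth of the latter at 60.5% of control. Fold enrichment is the pileup over the local background of the same library and was not on a common scale, with a median of 2.03 in control and 2.45 after inactivation. Peaks were therefore compared by the percentile of their fold within their own list. Of the protein-coding genes, 68.4% had a promoter peak in control and 65.5% after inactivation. Epithelial markers had promoter peaks for 11 of 12 genes in control and 12 of 12 after inactivation, and enterocyte markers for 5 and 7 of 10, with none at Sis or Lct. Promoter peaks did not separate cell types well: 5 of 7 fibroblast and smooth muscle markers and 3 of 3 neuronal markers had one in each list, against 2 and 1 of 4 endothelial markers. Fewer open cells and less opening per cell cannot be told apart in bulk chromatin.

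The promoters on which the results turn are shown from 250 bases before to 50 bases after the start site nearest to the centre of the strongest control peak, read 5′ to 3′ on the coding strand of mm9. Vil1 (chr1:74455700-74455999, plus strand) carried the largest gain of pileup among the 9 genes, Espn (chr4:151526267-151526566, minus strand) and Ezr (chr17:6987084-6987383, minus strand) had the largest rank differences downwards, and Myo1a (chr10:127141976-127142275, plus strand) and Cdhr5 (chr7:148462636-148462935, minus strand) the largest upwards. Capitals mark GGGCGG or its reverse complement, the core of SP and KLF sites, and in Ezr also TGANTCA, the AP-1 word. The windows follow the start site and reach outside the called peaks in places. The Myo1a window begins beyond the end of its inactivated peak, at 127141859. Both capitalised stretches of Espn lie outside its peaks, which end at 151526385 in control and 151526420 after inactivation.
Vil1 promoter: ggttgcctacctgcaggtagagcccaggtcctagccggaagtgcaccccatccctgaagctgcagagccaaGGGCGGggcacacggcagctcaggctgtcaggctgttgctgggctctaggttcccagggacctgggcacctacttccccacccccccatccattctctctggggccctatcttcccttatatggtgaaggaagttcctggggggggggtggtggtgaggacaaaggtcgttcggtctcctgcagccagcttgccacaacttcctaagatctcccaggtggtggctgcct
Espn promoter: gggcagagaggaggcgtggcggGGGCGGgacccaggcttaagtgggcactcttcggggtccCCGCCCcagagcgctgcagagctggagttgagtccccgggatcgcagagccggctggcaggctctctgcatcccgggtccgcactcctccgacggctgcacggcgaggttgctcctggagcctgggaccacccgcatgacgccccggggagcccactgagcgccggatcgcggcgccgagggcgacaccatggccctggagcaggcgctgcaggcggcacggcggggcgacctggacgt
Ezr promoter: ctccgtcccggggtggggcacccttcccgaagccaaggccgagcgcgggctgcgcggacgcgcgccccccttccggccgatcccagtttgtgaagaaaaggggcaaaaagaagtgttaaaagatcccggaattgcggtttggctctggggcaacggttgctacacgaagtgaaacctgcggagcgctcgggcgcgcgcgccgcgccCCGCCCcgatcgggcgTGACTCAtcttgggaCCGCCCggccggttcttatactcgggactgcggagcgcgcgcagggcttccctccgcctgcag
Myo1a promoter: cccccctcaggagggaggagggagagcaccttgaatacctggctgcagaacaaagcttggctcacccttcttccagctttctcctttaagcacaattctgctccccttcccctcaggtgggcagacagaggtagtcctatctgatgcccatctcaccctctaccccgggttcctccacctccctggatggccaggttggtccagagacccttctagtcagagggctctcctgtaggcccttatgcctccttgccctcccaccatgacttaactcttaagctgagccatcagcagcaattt
Cdhr5 promoter: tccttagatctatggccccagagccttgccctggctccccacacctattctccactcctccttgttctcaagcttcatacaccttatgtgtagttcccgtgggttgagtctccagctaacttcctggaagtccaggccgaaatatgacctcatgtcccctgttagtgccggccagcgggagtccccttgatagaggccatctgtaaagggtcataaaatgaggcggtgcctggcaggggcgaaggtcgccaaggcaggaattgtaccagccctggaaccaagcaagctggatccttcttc

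The word TATAAA of the TATA box was absent from all 9 promoter windows, a share whose upper limit is 33.6%, and 6.16% of promoters of coding genes with a control peak held it. The HNF4 words CAAAGTCCA and CAAAGGTCA were absent too, and 0.726% of promoters held either. Nor was the CDX word TTTATNG found, which 6.01% of promoters held. The word AGATAA, bound by GATA factors, was likewise absent and was held by 5.50%. All words were searched on both strands. GGGCGG was found in 4 of 9 windows, those of Vil1, Ezr, Espn and Ush1c, against 63.3% of promoters. TGANTCA, which reads alike on both strands, was found in Ezr alone, starting 28 bases before the start site, between GGGCGG matches that begin 44 and 13 bases before it, and 4.52% of promoters held it. GC content ran from 43.7% in Eps8 and 55.0% in Cdhr5 to 68.0% in Ezr and 73.7% in Espn, with a median of 62.0% over promoters of coding genes with a control peak. A match describes the letters in the window and does not show a bound factor.

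The 3 distal regions below are shown as the central 300 bases of the inactivated peak, on the plus strand. The stretch in the first intron of Vil1 (chr1:74458840-74459139) and that beyond the 3′ end of Ezr (chr17:6936082-6936381) lay in peaks of the inactivated list that had no control partner, whereas the stretch beyond the 3′ end of Vil1 (chr1:74499244-74499543) lay in the strongest shared peak around that gene. Capitals mark a GATA word in the shared Vil1 region, read from the other strand, and an AP-1 word in the Ezr region.
Vil1 intronic peak: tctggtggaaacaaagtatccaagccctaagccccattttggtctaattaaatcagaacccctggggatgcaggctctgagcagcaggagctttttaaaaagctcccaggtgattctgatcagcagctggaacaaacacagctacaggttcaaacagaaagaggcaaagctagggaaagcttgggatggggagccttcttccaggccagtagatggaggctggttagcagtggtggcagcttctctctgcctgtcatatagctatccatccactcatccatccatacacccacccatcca
Vil1 shared peak: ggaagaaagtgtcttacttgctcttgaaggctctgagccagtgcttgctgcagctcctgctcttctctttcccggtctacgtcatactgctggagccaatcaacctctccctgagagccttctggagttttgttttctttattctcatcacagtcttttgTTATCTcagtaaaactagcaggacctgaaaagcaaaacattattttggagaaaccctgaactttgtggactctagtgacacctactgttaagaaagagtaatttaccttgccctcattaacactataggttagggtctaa
Ezr peak without a partner: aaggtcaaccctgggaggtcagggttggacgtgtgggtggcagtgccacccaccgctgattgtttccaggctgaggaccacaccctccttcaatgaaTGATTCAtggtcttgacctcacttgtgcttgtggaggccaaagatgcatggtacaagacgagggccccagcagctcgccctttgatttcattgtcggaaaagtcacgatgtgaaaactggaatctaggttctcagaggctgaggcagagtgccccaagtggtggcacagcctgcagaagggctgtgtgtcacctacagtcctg

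All 9 genes had a promoter peak in both lists. There were 15 promoter peaks in control and 13 after inactivation, and every one overlapped a peak of the other list by at least 1 bp, so that 0 of 15 and 0 of 13 were without a partner (upper limits 21.8% and 24.7%). Of the promoter peaks of all coding genes, 18.4% in control and 10.3% after inactivation had none, and both values lie below these limits. The difference of 2 in number came from internal start sites of Ezr and Ush1c, where a peak was present in both lists but its edge lay within 1 kb of the start site in control alone. Ranked by their strongest promoter peak, 4 genes were at least 10 percentile points lower after inactivation, 3 were at least 10 points higher and 2 differed by less. The counts depended on the ranking value: by −log10 p 2 genes were lower and 1 higher, and by pileup 0 were lower and 1 was higher. Ranked by fold, 26.3% of 14022 coding genes with a promoter peak in both lists were lower and 13.5% higher. These shares were not computed for the other rankings. The median difference by fold was -2.66 points in the 9 genes and -2.77 in all coding genes. Its quartiles were -18.9 and 21.0 against -10.6 and 2.35. Folds were packed closely, as 1.86 to 2.31 spanned percentiles 15.4 to 80.5 in control, so that a small step in fold could move a gene far in rank. No test of these counts was possible with 1 library per genotype.

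**Figure D1:**
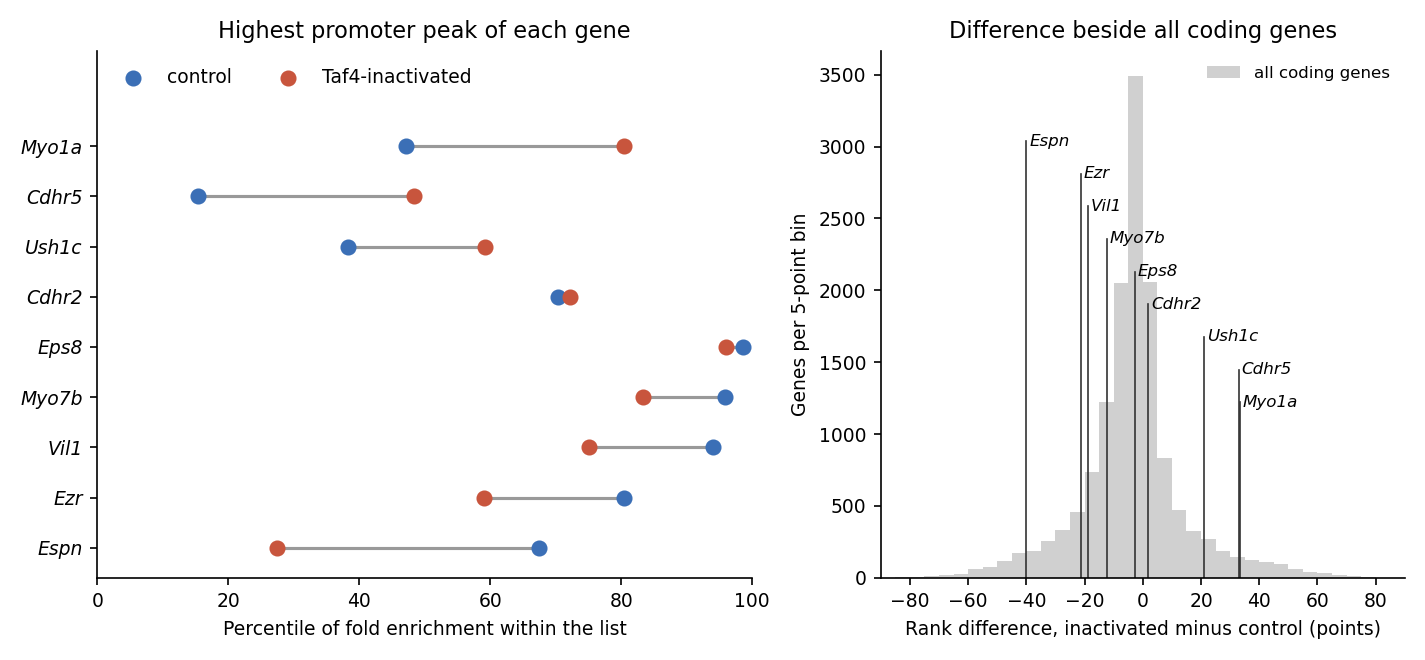
Left, percentile of fold enrichment within its list (0 to 100) for the strongest promoter peak of each gene, with control in blue and Taf4-inactivated in red. Right, difference in percentile points (inactivated minus control) for each gene as a line, placed over the number of coding genes per bin in grey; the height of a line carries no value. Espn sits at -40.0 points, Cdhr5 and Myo1a at 32.9 and 33.2, and Eps8 and Cdhr2 near 0.

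Of the genes for bundling, capping and linking proteins of the core, Vil1, Espn and Ezr were at least 10 points lower in rank after inactivation and Eps8 differed by less. Vil1 (ENSMUSG00000026175.6, chr1:74455950-74482133, plus strand) encodes villin, which bundles and severs actin filaments. Its promoter peak over the 5′ untranslated region was at fold 2.81 (chr1:74455062-74456158, percentile 94.0) in control and 2.97 (chr1:74454974-74456125, percentile 75.1) after inactivation. The lower rank accompanied a higher pileup, as described for this locus below, and ranking by pileup gave a difference of 2.04 points in place of -18.9. A further start site inside Vil1, 9.48 kb from the outermost one, had weak peaks at percentiles 12.4 and 1.65.

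Espn (ENSMUSG00000028943.10, chr4:151494440-151526480, minus strand) encodes espin, a compact actin bundler that is also present in the stereocilia of the inner ear. Its strongest promoter peak was at fold 2.15 (chr4:151525894-151526385, percentile 67.5) in control and 2.23 (chr4:151525948-151526420, percentile 27.5) after inactivation, the largest difference among the 9 genes. Relative to the floor of each library the pileup was 4.17 in control and 4.27 after inactivation, close together, while folds of the whole list were higher after inactivation. Internal start sites of Espn had peaks near the bottom of both lists, at percentiles 1.07 and 0.68 in control and 5.44 and 2.31 after inactivation. When the pair of promoter peaks with the largest overlap was used, one of these internal pairs stood for the gene and the difference was 1.63 points.

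Ezr (ENSMUSG00000052397.8, chr17:6942390-6987133, minus strand) encodes ezrin, which links the actin core to the plasma membrane. Its promoter peak was at fold 2.31 (chr17:6986578-6987951, percentile 80.5) in control and 2.58 (chr17:6986378-6987803, percentile 59.1) after inactivation. The difference of -21.4 points kept its sign under every alternative tried for it, between -24.2 and -7.06 points.

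Eps8 (ENSMUSG00000015766.8, chr6:137425766-137603397, minus strand) encodes a protein at the tips of microvilli that caps and bundles actin. Its strongest promoter peak lay at an internal start site at position 137519538, with fold 3.40 (chr6:137519171-137519743, percentile 98.7) in control and 4.29 (chr6:137519181-137519732, percentile 96.0) after inactivation. A peak near the outermost start sites, centred 5.68 kb downstream of the outermost one in control, was at percentile 96.9 in control and 78.4 after inactivation. When the pair of promoter peaks with the largest overlap was used, this peak stood for Eps8 and the difference was -18.5 points in place of -2.66. Eps8 was the highest-ranked of the 9 promoters in both lists.

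The myosins differed from each other. Myo1a (ENSMUSG00000025401.8, chr10:127142226-127157943, plus strand) encodes the class I motor that bridges the actin core and the membrane. Its promoter peak ended upstream of the start site in both lists and was at fold 2.02 (chr10:127140411-127142142, percentile 47.2) in control and 3.16 (chr10:127140396-127141859, percentile 80.4) after inactivation. The difference of 33.2 points was positive under every alternative tried for it, between 18.0 and 57.1 points. Myo7b (ENSMUSG00000024388.10, chr18:32118888-32196615, minus strand) encodes the class VII myosin of the adhesion complex at microvillus tips. Its promoter peak was at fold 2.97 (chr18:32196101-32197552, percentile 95.8) in control and 3.29 (chr18:32195663-32196999, percentile 83.4) after inactivation. The difference of -12.4 points was negative under every alternative tried for it, from -21.7 to -4.33 points.

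Among the genes of adhesion between microvilli, Cdhr5 and Ush1c ranked higher after inactivation and Cdhr2 differed by less than 10 points. Cdhr5 (ENSMUSG00000025497.7, chr7:148454984-148462685, minus strand) encodes a protocadherin that pairs with CDHR2 between microvilli. Its promoter lay in the widest promoter peak of the set, which also covered a start site of the neighbouring Sct, the gene of the hormone secretin, so the signal cannot be assigned to Cdhr5 alone. It was at fold 1.86 (chr7:148461768-148465187, percentile 15.4) in control and 2.43 (chr7:148461858-148464908, percentile 48.3) after inactivation, a difference of 32.9 points that was 2.28 when ranked by pileup. Cdhr2 (ENSMUSG00000034918.8, chr13:54802822-54838023, plus strand), its partner protocadherin, was at fold 2.18 (chr13:54802549-54804108, percentile 70.4) in control and 2.88 (chr13:54802579-54804072, percentile 72.2) after inactivation. Ush1c (ENSMUSG00000030838.9, chr7:53450720-53493873, minus strand) encodes harmonin, the scaffold that connects these cadherins with MYO7B. It was at fold 1.97 (chr7:53491443-53493981, percentile 38.2) in control and 2.58 (chr7:53491597-53494112, percentile 59.2) after inactivation. Its difference of 21.0 points was -0.616 when ranked by pileup.

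Pileup over the floor of the library gave another view of the same promoters. It was higher after inactivation at 9 of 9, with ratios from 1.02 in Espn to 2.99 in Vil1, and 8 of 9 lay above the median ratio of 1.34 over all 42491 pairs of peaks. Nearly all promoters behaved in this way on this scale, as 95% of 14050 promoter pairs of coding genes were higher and 69% lay above that median. The median over those promoter pairs was 1.53, with quartiles of 1.26 and 1.75. Myo1a had the next highest ratio, from 2.88 to 6.28 times the floor, followed by Cdhr5, from 4.06 to 7.53 times. The ratio was 1.41 in Ezr, 1.51 in Myo7b, 1.53 in Cdhr2, 1.58 in Eps8 and 1.69 in Ush1c. The scale rests on a floor estimated in each library, and a change in that estimate would move all 9 ratios together.

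Vil1 stood apart in its local background as solved. This background came from the same library as the pileup. Both were solved from the same fold and p of a peak, so they were not separate measurements. At its promoter pair the background was 1.803 times the floor in control and 5.17 times after inactivation, and the ratio of 2.87 was the highest of all 42491 pairs. Only 5 pairs, or 0.0118%, reached a ratio of 2. The pileup there was 5.21 times the floor in control and 15.6 times after inactivation, and 10 other pairs had a ratio as large as its 2.99 or larger. In the inactivated list 40 of 71282 peaks had a higher pileup than the Vil1 promoter peak, against 1893 of 90445 in control. In the first intron, 3.04 kb from the outermost start site, the inactivated list held a peak without a control partner (chr1:74458377-74459601, fold 2.64, percentile 62.3), whose central sequence is shown above. Its pileup was 14.4 times and its background 5.37 times the floor, and 49 peaks of the list had a higher pileup.

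Farther from the promoter the local background differed less between the libraries. The other 7 Vil1 pairs, at 17.2 and 12.6 kb upstream and from 9.48 to 43.5 kb downstream of the outermost start site, had background ratios from 0.935 to 1.37, and the internal start site at 9.48 kb had pileups of 3.19 and 3.20 times the floor. The 46 pairs of the other 8 genes had ratios from 0.746 to 1.47 with a median of 1.07, and the median over all pairs was 1.04. Only the inactivated culture carried VilCreERT2 with its copies of Vil1 regulatory sequence, so a contribution of the transgene and a change at the native gene cannot be told apart here. This locus was singled out after its values were seen, and without Vil1 the median rank difference of the other 8 promoters was -0.422 points.

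**Figure D2:**
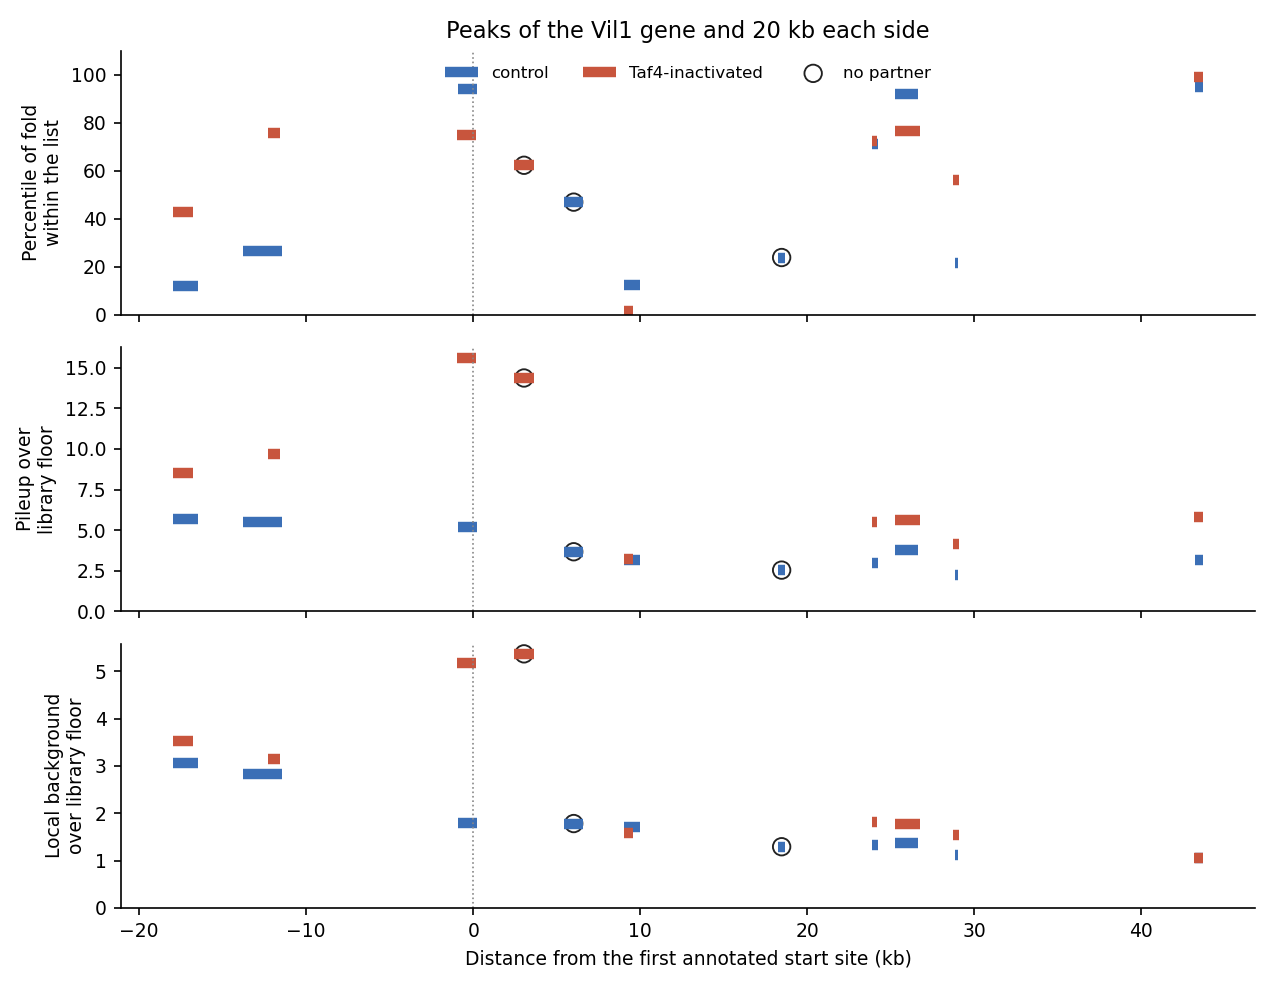
Peaks of Vil1 and 20 kb on either side, at their distance from the outermost start site in kb (dotted line at 0), in control (blue) and Taf4-inactivated (red) enteroids, with bar length equal to peak width and circles around peaks without a partner. The panels give the percentile of fold within the list, the pileup and the local background, both as multiples of the floor of the library. Pileup at the promoter and at the intronic peak 3.04 kb downstream reached 15.6 and 14.4 times the floor after inactivation, while the peaks farther away were at 9.67 times or less.

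**Figure D3:**
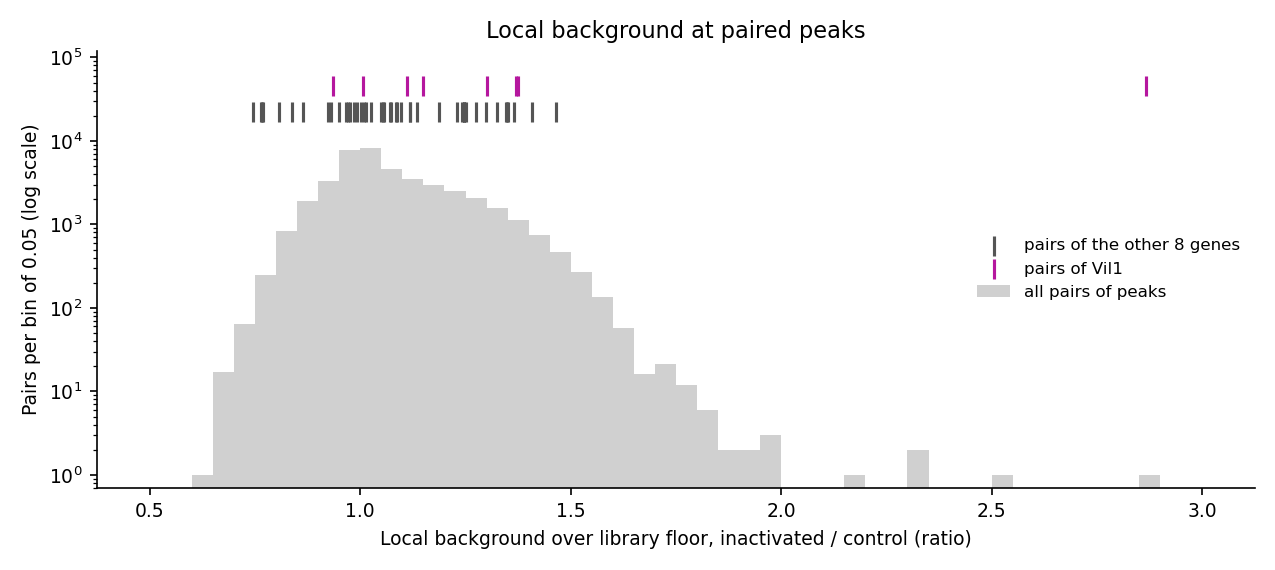
Ratio of local background over the floor, inactivated to control, for all 42491 pairs of peaks (grey bars, logarithmic count axis), with ticks for the pairs of Vil1 and of the other 8 genes, whose height carries no value. The Vil1 promoter lies at 2.87, beyond every other pair, and all other pairs of the 9 genes lie between 0.746 and 1.47.

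Distal peaks numbered 72 in control and 63 after inactivation, covering with the promoter peaks 84.1 kb and 60.04 kb. This order turned to 37 in control and 53 after inactivation with a −log10 q of 2 or more, and to 41 and 54 when each list was limited to its 50000 peaks with the highest −log10 p. The 9 genes had 4 to 14 such peaks each in control and 3 to 13 after inactivation. The median per coding gene was 3 in both lists, with quartiles of 1 and 6 in control and 1 and 5 after inactivation. Myo1a, Cdhr5 and Ush1c lay inside these quartiles in both lists. Long genes such as Eps8 (177632 bp) offer more room, and gene length was not matched. In control 33 of 72 had no partner (45.8%, CI 34.0 to 58.0), and after inactivation 22 of 63 (34.9%, CI 23.3 to 48.0). The shares over the distal peaks of all coding genes were 53.3% and 40.5%, each inside the interval of its list. The order of the shares depended on the threshold too: when both lists were restricted to a −log10 q of 2 or more, the shares were 27.0% in control and 49.1% after inactivation. The control library was also the deeper one, and its part in this order was not tested. Start sites of other genes lay within 1 kb of 12 of 72 control (16.7%) and 9 of 63 inactivated distal peaks (14.3%). The matching share over the distal peaks of all coding genes was not computed. These start sites were those of Ctdsp1 beside Vil1, of Plekhg5, Tnfrsf25, Hes2 and Gm13077 beside Espn, of Zbtb39 beside Myo1a, of Rnf44 and Gprin1 beside Cdhr2, and of Phrf1, Irf7 and Drd4 beside Cdhr5.

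**Figure D4:**
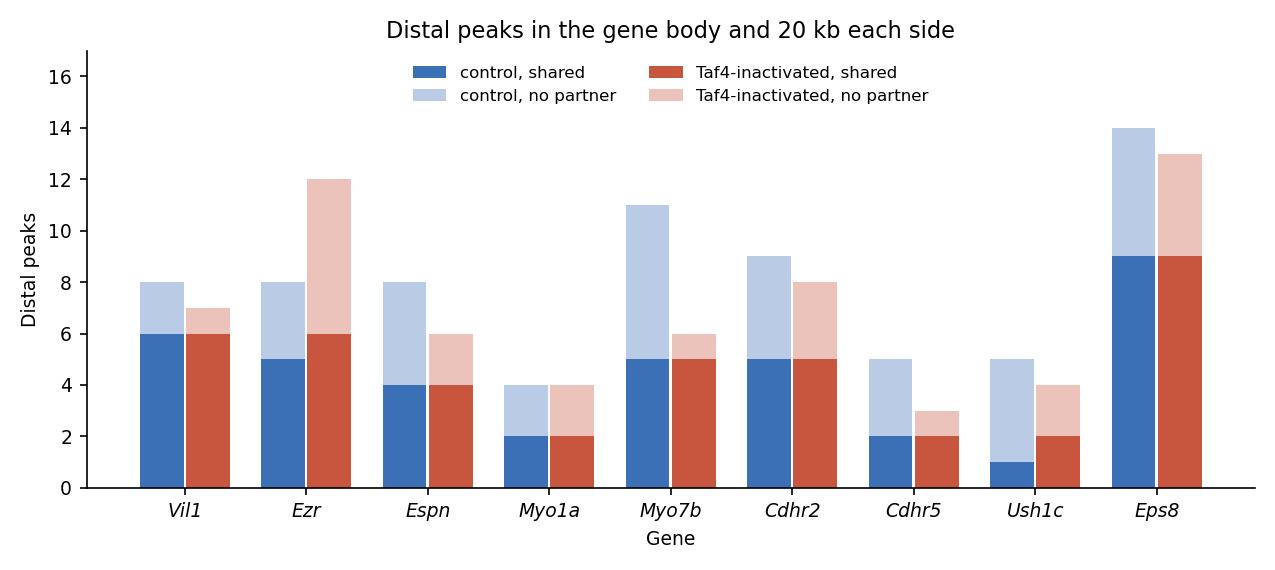
Number of distal peaks of each gene in control (blue) and Taf4-inactivated (red) enteroids, with those that overlap a peak of the other list in full colour and those without a partner in pale colour. Ezr had 12 distal peaks after inactivation against 8 in control, and Myo7b 6 against 11.

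Distal peaks without a partner were weaker than shared ones, but low rank of such peaks was not particular to the genes described. Of the unpartnered distal peaks of all coding genes, only 2580 of 32740 in control and 1793 of 19648 after inactivation reached percentile 75. In the genes described, the median percentile of unpartnered peaks was 14.1 against 62.3 in control and 27.9 against 67.2 after inactivation. In control they often lay over coding exons: 22 of 33 did (66.7%, CI 48.2 to 82.0), against 16 of 39 shared peaks (41.0%, CI 25.6 to 57.9), 21.1% of unpartnered and 31.9% of shared distal peaks of all coding genes. Myo7b, with 6 such control peaks of which 4 lay over its own coding exons, at percentiles from 2.47 to 16.7, had the most. After inactivation 7 of 22 lay over coding exons (31.8%, CI 13.9 to 54.9), against 12.3% for all coding genes. This feature was chosen after the peaks were seen, and the share of exon sequence in these windows was not matched.

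At or above percentile 75, no control distal peak lacked a partner (0 of 72, up to 4.99%), against 4.2% for all coding genes. After inactivation 4 of 63 did (6.35%, CI 1.76 to 15.5), against 3.7%. Of these 4 peaks, 3 belonged to Ezr, whose 6 distal peaks without a partner after inactivation were also the most of any of the 9 genes. The strongest lay 50.9 kb from the start, beyond the 3′ end (chr17:6936029-6936433, fold 3.65, percentile 89.5), and its centre is the sequence with an AP-1 word shown above. Another lay in an intron 15.9 kb from the start (chr17:6971024-6971452, fold 3.34, percentile 84.5), and the third 15.6 kb upstream (chr17:7002172-7003316, fold 3.14, percentile 80.0). A shared upstream Ezr peak, 11.8 kb from the start, was at percentile 29.1 in control and 75.8 after inactivation, whereas an intronic one 3.43 kb downstream of the start was at 37.3 and 6.05. The fourth peak lay 9.41 kb upstream of Myo1a (chr10:127132446-127133182, fold 3.33, percentile 84.2).

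Of 39 distal pairs, 13 were at least 10 points higher in rank after inactivation (33.3%, CI 19.1 to 50.2) and 5 at least 10 points lower (12.8%, CI 4.30 to 27.4). Over 28374 distal pairs of coding genes the shares were 24.9% and 31.7%. The median difference was 4.63 points in the 9 genes and -1.69 in all coding genes. The largest difference was 69.8 points, at a peak 28.7 kb from the start of Myo1a, beyond its 3′ end, which was at percentile 3.11 in control and 72.9 after inactivation. It was followed by a peak 12.6 kb upstream of Vil1, at 26.6 and 75.7, and by a peak 17.5 kb upstream of Cdhr5, at 20.0 and 67.2. Higher by at least 10 points were 3 of 6 pairs of Vil1, 3 of 5 of Ezr, 3 of 9 of Eps8 and 2 of 5 of Myo7b. Myo1a and Cdhr5 each had 1 of 2, and Espn with 4 pairs, Cdhr2 with 5 and Ush1c with 1 had 0. The lower pairs were 2 of Eps8 and 1 each of Vil1, Ezr and Cdhr2.

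Several genes had strong distal peaks in both lists. The shared Vil1 peak 43.5 kb from the start, shown above with its GATA word, was at fold 2.87 (percentile 94.8) in control and 4.99 (percentile 98.9) after inactivation, with a background near the floor in both (1.05 and 1.06 times). In Myo7b the strongest distal peak overlapped a coding exon 38.02 kb into the gene and was at percentiles 97.0 and 98.6. Eps8 had the most distal peaks, and its introns held the strongest of them, at 42.6 kb from the outermost start site (96.7 and 91.1), at 57.0 kb (80.6 and 98.0), at 104.2 kb (89.5 and 94.7) and at 89.5 kb (93.3 and 98.3). The strongest distal peak of Cdhr2, 7.50 kb upstream at percentiles 91.6 and 87.0, lay at a start site of Rnf44, and that of Espn overlapped a coding exon 13.6 kb from its outermost start site at 75.5 and 69.7. In Ezr the strongest distal peak of the control list lay in an intron 9.04 kb from the start at 82.6, and was at 82.6 after inactivation too, when a peak 54.5 kb from the start was the strongest at 89.8.

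The distal peaks of Myo1a, Cdhr5 and Ush1c were weaker in control. The strongest in control was at percentile 61.6 for Myo1a, at a start site of Zbtb39, at 25.3 for Cdhr5 and at 20.8 for Ush1c, the last 2 over coding exons and without a partner. After inactivation the strongest were at 84.2, 67.2 and 59.3. For Ush1c this was the intronic peak 19.9 kb from the start (chr7:53473854-53474121), which ended 1016 bp from an internal start site. Its control partner (chr7:53473920-53474798, percentile 6.52) lay 339 bp from that site and so was a promoter peak. A like case in Ezr paired a control peak 316 bp from an internal start site (chr17:6947486-6948366, percentile 10.5) with an inactivated one 1056 bp from it (chr17:6948226-6948425, percentile 34.8).

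**Figure D5:**
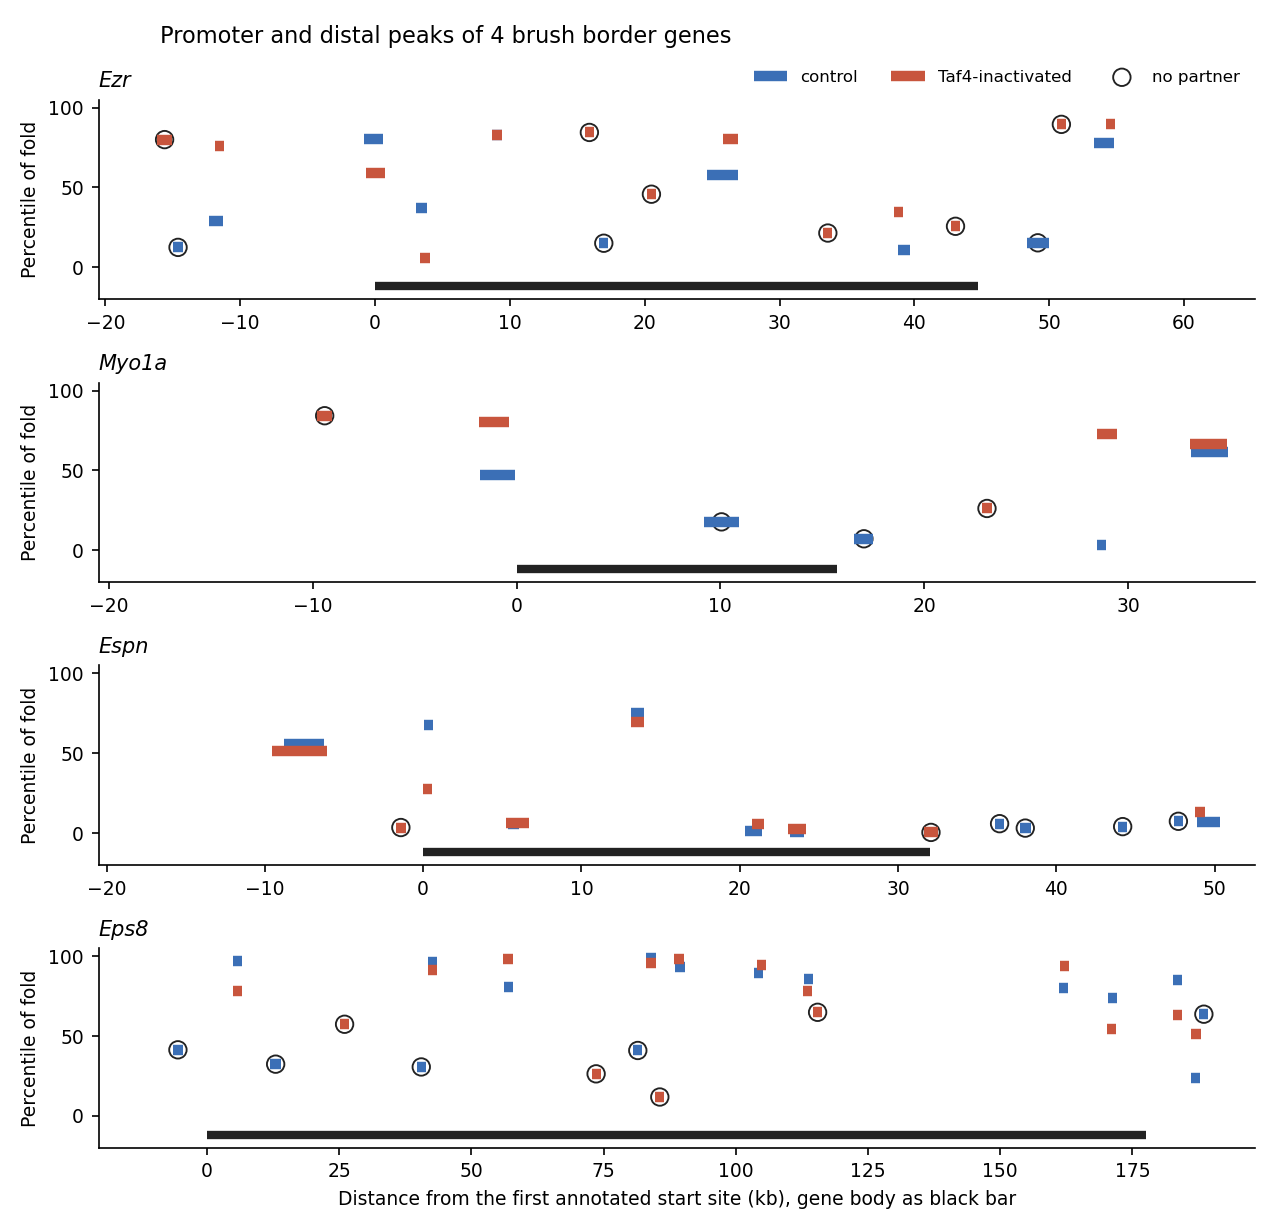
Percentile of fold within the list for every promoter and distal peak of Ezr, Myo1a, Espn and Eps8, at its distance from the outermost start site in kb, in control (blue) and Taf4-inactivated (red) enteroids; circles mark peaks without a partner, black bars the gene bodies, and narrow peaks are drawn at a minimum length. Ezr shows 3 unpartnered red peaks between percentiles 80.0 and 89.5, and the intronic peaks of Eps8 lie high in both lists.

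Recognition words were counted in the central 300 bases of distal peaks. TTTATNG, the CDX word, was found in 12 of 63 inactivated peaks of the 9 genes (19.0%, CI 10.2 to 30.9), against 10.3% of distal peaks of all coding genes, and in 5 of 72 control peaks (6.94%, CI 2.29 to 15.5) against 8.52%. AP-1 was found in 15.9% after inactivation (CI 7.88 to 27.3) against 12.5%, and in 11.1% in control (CI 4.92 to 20.7) against 9.64%. GATA was found in 15.9% after inactivation (CI 7.88 to 27.3) against 13.0%, and in 8.33% in control (CI 3.12 to 17.3) against 10.3%. HNF4 was found in 1 of 63 and 2 of 72 peaks, against 2.93% and 1.53%. GGGCGG was found in 22.2% after inactivation (CI 12.7 to 34.5) against 17.6%, and in 29.2% in control (CI 19.0 to 41.1) against 15.4%, where the interval lay above the background. Coding exons and start sites of other genes under these peaks were not matched, and their part in this share was not tested. TATAAA was found in 12.7% and 11.1%, against 9.67% and 8.15%. Each of the other intervals given held the share of all coding genes, that of CDX after inactivation by a narrow margin.

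Another 17 genes of the brush border, among them bundlers, myosins and scaffolds, were followed as a list. Of these 16 had a promoter peak in both lists and Tmigd1 had none, where 68.4% of all coding genes had one in control and 65.5% after inactivation. The median rank difference of the 16 was -4.67 points, against -2.77 over all coding genes. Of the 16, 4 were lower and 4 higher by at least 10 points, against 26.3% and 13.5% of all coding genes. The lowest were Slc9a3r1, the scaffold EBP50 that binds ezrin, at -28.0 points, Pdzk1, another PDZ scaffold, at -23.2, and Myo1e, a class I myosin, at -15.5. The highest were Eps8l2, a relative of Eps8, at 35.7 points, Vill, a villin-like gene, at 18.9, and Eps8l3 at 15.5. Anks4b, which joins harmonin and MYO7B in the adhesion complex, was at 8.12 points, from percentile 88.5 to 96.6.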

How the data were processed

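ATAC-seq was compared between 1 control and 1 Taf4-inactivated enteroid library, grouped by the genotype in the labels. The authors mapped reads to mm9 with Bowtie 1.0.0, retained uniquely mapping reads, and called broad peaks per library with MACS2 2.1.1 (no model, shifted reads extended by 200 bp). The deposited fold enrichment is averaged over each peak against background of the same library. The deposited −log10 p and −log10 q are likewise averages, and the deposited score is derived from the q and was not used. How the authors treated duplicates was not given in the sources used here.

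Positions were made 1-based and matched to the GENCODE annotation of the NCBIM37 (mm9) reference with Python 3.11.15, numpy 2.4.6, pandas 2.3.3, scipy 1.17.1, pysam 0.24.0 and matplotlib 3.10.9. Percentiles were ranks of fold within a list, peaks were partners from 1 bp of overlap, and pairs overlapped each other best. Where a gene had several promoter peaks, the one with the highest fold was used in each list. Pileup and local background were the values that gave the fold and the Poisson p together, and the floor was percentile 5 of the background over the narrowest 10% of peaks. The solving of pileup and background, the search for partners, the assignment of peaks to genes and the percentile were tested on simulated data. The floor and the choice of pairs were not. Simulated peaks had a flat background and a constant or moderately varied pileup. The effect of stronger unevenness within real broad peaks on the solved values was not tested.

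Named regions were promoter peaks, the strongest distal peak in each list, and distal peaks without a partner from percentile 75. Named genes of the further brush border list were the 3 lowest and 3 highest in rank difference, with Anks4b added after its value was seen. Other regions were also chosen after values were seen, as were the count of coding exons and the description of Vil1. The members and lists were chosen with earlier results of these data known. Immune cell markers are not reported here. No p-value was computed.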

Additional observations from a re-analysis of the deposited data

How the results depend on the processing

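Of 80 alternatives to the counts, medians and shares, 67 stayed close to the reported value. Close meant within 1.5 times for a count, within 10 points for a median and inside the CI for a share. Alternatives for the start sites left most values unchanged, and the genes with a promoter peak numbered 9 throughout. Of 81 alternatives for the rank differences of single genes, 60 stayed within 10 points, 17 moved farther and 4 turned the sign of a difference of at least 10 points. Distal peaks numbered 111 after inactivation and 132 in control with 50 kb on either side, while control had 37 against 53 after inactivation at a −log10 q of 2 or more, and 41 against 54 among the 50000 peaks with the highest −log10 p, so that the order turned under both. Ranked by −log10 p, 1 promoter was higher and 2 were lower by 10 points, and ranked by pileup 1 was higher and 0 lower. Distal peaks without a partner made up 27.0% of control and 49.1% of inactivated peaks at the stricter q, 26.8% of control among 50000 peaks, and 69.4% and 65.1% when 50% of both peaks had to overlap. Signs turned for 3 promoters: Espn to 1.63 points with the pair of largest overlap, Ush1c to -0.616 by pileup, and Vil1 to 1.27 by −log10 p and 2.04 by pileup. Cdhr2 took both signs, from -3.84 to 16.8, and the cause was not tested. The median over the 9 promoters ran from -5.68 to -2.64, except for 1.63 with the pair of largest overlap, and was -0.422 over the 8 without Vil1. Leaving out Vil1, an alternative chosen after seeing the data, gave 64 control and 56 inactivated distal peaks, of which 48.4% and 37.5% had no partner. No paired analysis was possible because each genotype had a single library, which also left no replicate to leave out. The inactivated library had an estimated 60.5% of the control depth, and the part of depth in these counts was not tested.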
